A study of Homo sapiens with 2 samples.

Results

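The genes described here encode proteins of the mitochondrial ribosome, the MRPL genes of its large subunit and the MRPS genes of its small subunit. Members were the protein-coding genes whose symbol is MRPL or MRPS followed by a number and an optional letter A, B or C, and which had a probe set naming no other gene. Of 22411 genes with such a probe set, 74 were members, 48 of the large and 26 of the small subunit. The other 3 genes that fit the naming, MRPL30, MRPS6 and MRPS16, lay on probe sets shared with another gene and are given apart. The naming rule itself uses no measured value, but the gene family was taken up with earlier results of these data known.

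Expression was measured in MDA-MB-231, an established human breast cancer line of the triple-negative kind, cultured in high-glucose medium with serum. The 2 stable derivatives compared were cells carrying pLKO.1-shSREBP, a vector for a short hairpin RNA against SREBP1, and control cells carrying the pLKO.1 vector. The title of the control sample names it shNC. Each had 1 array, so there was no spread between replicates, no test was possible, and every difference is described by its size alone. Neither the number of clones behind a derivative nor the sequence of the hairpin is given in the labels.

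Signals are RMA values in log2 units, and a difference is the signal on the array labelled knockdown minus that on the control array. A gene counted as measured when the higher of its signals was above 3.21 log2 units, a floor set on olfactory receptor genes. All 74 members and 15677 genes in all were above it. SREBF1, which encodes SREBP1, had a signal of 5.29 log2 units on the array labelled knockdown and 5.13 on the control array. The target RNA was thus not lower, and directions below refer to the label of the array. All 6 mesenchymal markers were above the floor, from SPARC at 4.09 log2 units on the array labelled knockdown and 4.06 on the control array to MSN at 10.4 on the array labelled knockdown and 10.1 on the control array. Of 7 luminal markers 5 were above it, led by KRT19 with 6.80 on the array labelled knockdown and 7.26 on the control array, while the receptor genes ESR1 and PGR were under it on both. Of 5 leukocyte markers 4 were above it, led by CD68 with 8.85 on the array labelled knockdown and 8.64 on the control array, while PTPRC was under it on both. The part of these markers in the results was not tested. Over the whole set, the difference had an SD of 0.19 log2 units and a median of 0.012. In such bulk RNA, more RNA per cell and more cells that make it cannot be told apart.

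The mitochondrial ribosome translates the few messenger RNAs of the mitochondrial genome, which encode core subunits of the respiratory chain and of ATP synthase. Its ribosomal RNAs are mitochondrial transcripts, but all of its proteins are encoded in the nucleus, made in the cytosol and imported. The small subunit binds the messenger RNA and decodes it, and the large subunit joins the amino acids and releases the chain through an exit tunnel at the inner membrane. Some of these proteins have relatives in bacterial ribosomes, and others were added in mitochondria. Promoters of such nuclear genes for mitochondrial proteins are known to be bound by the factors NRF1 and GABP.

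Mitochondrial ribosomal protein genes were mostly a little higher on the array labelled knockdown. Of the 74 members, 62 were higher, 11 were lower and MRPL23 was equal on both arrays. That is 83.8% higher, where 52.2% of all genes above the floor were higher and 41.2% were lower. The median difference was 0.11 log2 units, or 1.08-fold, against 0.012 over all genes. Steps were small: 34 members were higher by at least 1.1-fold (45.9%, with 20.7% of all genes), and 1 was lower by that much (17.0% of all genes). At 1.2-fold, 9 members were higher (12.2%, with 6.59% of all genes) and none was lower (6.54% of all genes). No member differed by 1.5-fold in either direction, as 0.383% of all genes were higher and 0.753% lower by that much.

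**Figure D1:**
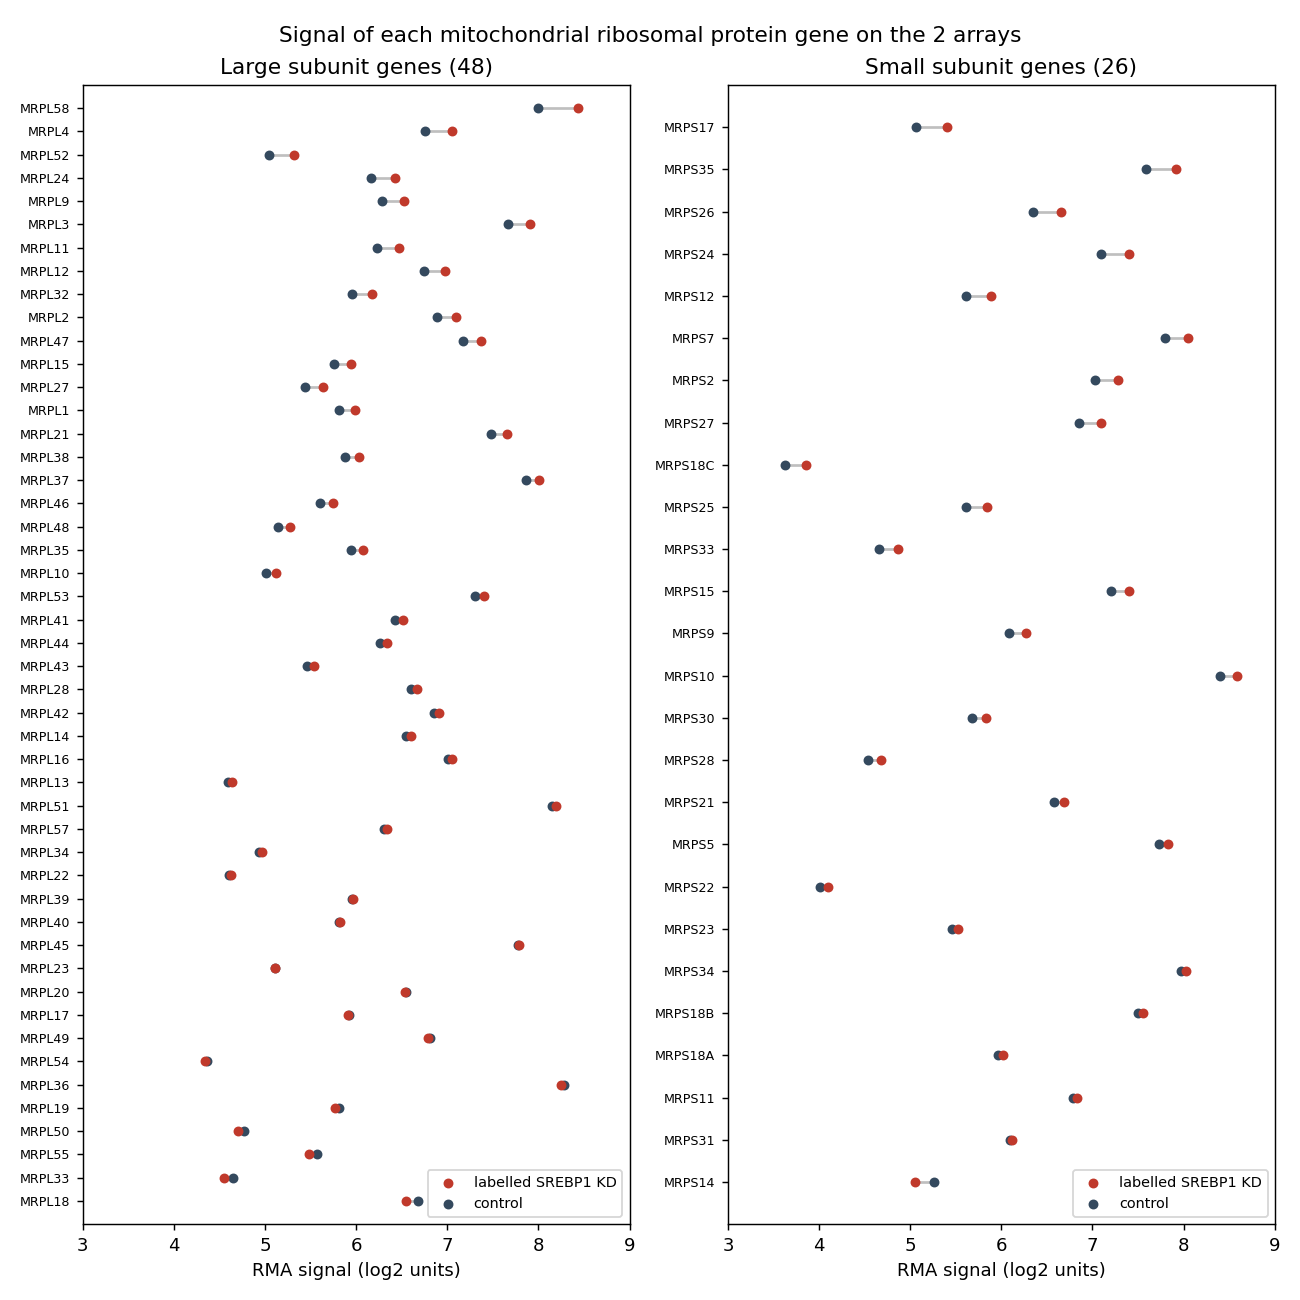
RMA signal of each member on the array labelled SREBP1 KD (red) and on the control array (dark blue), in log2 units, with genes ordered by difference within each subunit and 1 array per group. Red points lie right of blue ones for 37 of 48 large and 25 of 26 small subunit genes, and steps are short beside the range of signals.

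The members spanned a wide range of signals and ranked alike on both arrays. Signals ran from 3.86 to 8.58 log2 units on the array labelled knockdown, with a median of 6.34, and from 3.62 to 8.40 on the control array, with a median of 6.19. MRPS10 had the highest and MRPS18C the lowest signal on each. Across the 74 genes, Pearson's r between the arrays was 0.994, a description of genes that share both arrays. Signals of different probe sets depend on their probes, so this range is not one of RNA amounts.

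Small subunit genes lay further up than large subunit genes. In the large subunit 37 of 48 genes were higher, 10 were lower, and the median difference was 0.075 log2 units. For the small subunit, 25 of 26 genes were higher, 1 was lower, and the median was 0.19. The large minus small difference of medians was -0.11 log2 units, and that of means was -0.066. The groups overlapped widely: 13 of 48 large subunit genes lay above the small subunit's median, and 19 of 26 small subunit genes lay above the large subunit's. The spread within a subunit was alike, with an SD of 0.12 log2 units in each. At 1.1-fold, 18 large and 16 small subunit genes were higher, or 37.5% and 61.5%, with 20.7% of all genes. At that step 0 large and 1 small subunit genes were lower, with 17.0% of all genes. Of all genes above the floor 52.2% were higher by any amount. With 1 array per group this difference between subunits was not tested.

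The ranges of signal overlapped on each array. Large subunit genes ran from 4.34 to 8.44 log2 units on the array labelled knockdown, with a median of 6.34, and from 4.37 to 8.28 on the control array, with a median of 6.19. Small subunit genes ran from 3.86 to 8.58 on the array labelled knockdown, with a median of 6.47, and from 3.62 to 8.40 on the control array, with a median of 6.22.

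**Figure D2:**
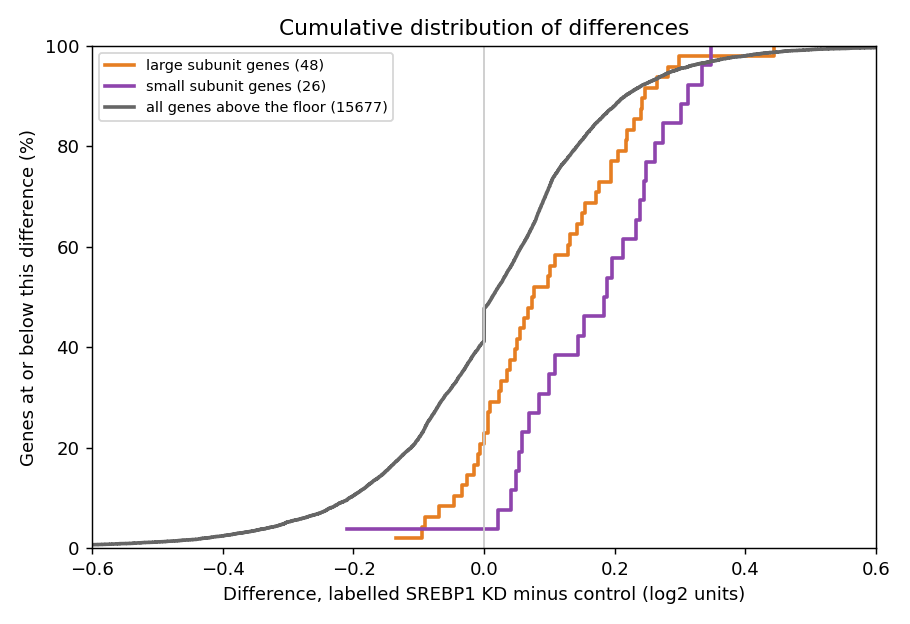
Cumulative share of genes (%) by difference, labelled SREBP1 KD minus control (log2 units), for large subunit genes (orange), small subunit genes (purple) and all genes above the floor (grey). Medians are 0.075, 0.19 and 0.012 log2 units, and the step in the grey line at 0 is made of genes with equal values on both arrays.

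For a pair of proteins the subunit is not the one in the symbol. In the known structure MRPS30 and MRPS18A lie in the large subunit in spite of their names. MRPS30 had 5.83 log2 units on the array labelled knockdown and 5.67 on the control array, and MRPS18A had 6.01 on the array labelled knockdown and 5.96 on the control array. With both moved, the medians were 0.075 over 50 large and 0.19 over 24 small subunit genes.

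Among large subunit genes, MRPL58 stood highest, and no member of either subunit had a larger difference. MRPL58, once called ICT1, encodes a peptidyl-tRNA hydrolase that frees stalled mitochondrial ribosomes and became part of the large subunit. It had 8.44 log2 units on the array labelled knockdown and 7.99 on the control array, a difference of 0.44 or 1.36-fold. That difference lay at the 98.7th percentile of all genes above the floor. MRPL4 followed, with 7.05 on the array labelled knockdown and 6.75 on the control array, or 1.23-fold higher. Its protein lines the exit tunnel in ribosomes of all kinds. MRPL52, a mitochondrial addition, had 5.32 and MRPL24, at the tunnel exit, 6.43 log2 units on the array labelled knockdown, against 5.04 and 6.16 on the control array. MRPL9 had 6.53 on the array labelled knockdown and 6.28 on the control array. MRPL24 was the last member above 1.2-fold, with a difference of 0.264 log2 units, and MRPS7, at 0.261, was the first below.

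At the other end of the large subunit, the lowest genes stayed short of a 1.1-fold step. MRPL18 encodes a protein of the central protuberance that is also reported to help bring 5S ribosomal RNA into mitochondria. It had 6.55 log2 units on the array labelled knockdown and 6.68 on the control array, a difference of -0.14. MRPL33 had 4.55 on the array labelled knockdown and 4.64 on the control array. For MRPL55, a relative of a bacterial protein at the contact of the subunits, the signal was 5.48 on the array labelled knockdown and 5.58 on the control array. MRPL50 and MRPL19 had differences of -0.069 and -0.047. These 5 genes lay below 0 under each scaling tried.

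The highest small subunit gene was MRPS17, which encodes a relative of the bacterial protein S17, an early binder of small subunit RNA. It had 5.41 log2 units on the array labelled knockdown and 5.06 on the control array, a difference of 0.35 or 1.27-fold. MRPS35 and MRPS26, which have no bacterial relative, had 7.92 and 6.66 log2 units on the array labelled knockdown, against 7.58 and 6.35 on the control array. MRPS24, whose bacterial relative lies at the channel where messenger RNA enters, had 7.40 on the array labelled knockdown and 7.10 on the control array. MRPS12 belongs to the decoding centre and had 5.89 on the array labelled knockdown and 5.62 on the control array. These 5 genes were the small subunit members beyond 1.2-fold, with differences from 0.27 to 0.35 log2 units. They make up 19.2% of the small subunit genes, where 6.59% of all genes were higher by 1.2-fold.

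MRPS14 was the 1 small subunit gene that was lower. It encodes a protein of the small subunit head and had 5.05 log2 units on the array labelled knockdown and 5.26 on the control array, a difference of -0.21 or 1.16-fold lower. Its second probe set had 3.97 on the array labelled knockdown and 3.98 on the control array, so the gene's average difference was -0.11. The next lowest were MRPS31 at 0.021, MRPS11 at 0.042, MRPS18A at 0.049 and MRPS18B at 0.053 log2 units, all above 0. MRPS18B had 7 probe sets, 6 of them on alternative versions of its chromosome region with equal values, and the seventh differed by 0.043.

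The regions before the start sites of the genes at each end are shown, since promoters are where NRF1 and GABP would act on members together. They are the 250 bases upstream of the RefSeq start site on GRCh38.p14, for the highest and lowest gene of each subunit and for MRPS18C, the 1 member with matches to both motifs. MRPL58 lies at chr17:75012420-75012669 on the plus strand, MRPL18 at chr6:159789562-159789811 on the plus strand, MRPS17 at chr7:55951627-55951876 on the plus strand, MRPS14 at chr1:175023426-175023675 on the minus strand and MRPS18C at chr4:83455808-83456057 on the plus strand. Capitals mark the ETS motif CCGGAAG, which GABP binds, and the NRF1 motif GCATGCGC, each on either strand.
MRPL58: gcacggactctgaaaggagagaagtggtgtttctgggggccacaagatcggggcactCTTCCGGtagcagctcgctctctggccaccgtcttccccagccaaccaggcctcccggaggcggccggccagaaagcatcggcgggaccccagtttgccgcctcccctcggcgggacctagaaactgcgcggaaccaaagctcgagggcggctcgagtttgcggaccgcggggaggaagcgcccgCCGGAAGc
MRPL18: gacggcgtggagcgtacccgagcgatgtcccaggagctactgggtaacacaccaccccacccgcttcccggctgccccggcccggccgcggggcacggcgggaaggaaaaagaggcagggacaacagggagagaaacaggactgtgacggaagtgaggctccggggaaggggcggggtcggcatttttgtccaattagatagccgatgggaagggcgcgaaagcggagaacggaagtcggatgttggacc
MRPS17: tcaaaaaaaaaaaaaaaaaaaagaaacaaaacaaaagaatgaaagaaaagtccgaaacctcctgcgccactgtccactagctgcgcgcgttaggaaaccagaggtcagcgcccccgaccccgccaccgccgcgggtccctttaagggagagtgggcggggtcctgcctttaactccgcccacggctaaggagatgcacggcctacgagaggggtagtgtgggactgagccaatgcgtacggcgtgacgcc
MRPS14: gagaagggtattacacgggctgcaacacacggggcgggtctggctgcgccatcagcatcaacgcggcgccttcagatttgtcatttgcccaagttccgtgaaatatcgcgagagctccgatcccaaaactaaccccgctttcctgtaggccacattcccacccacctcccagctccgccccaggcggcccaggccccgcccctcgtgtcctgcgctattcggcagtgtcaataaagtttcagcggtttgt
MRPS18C: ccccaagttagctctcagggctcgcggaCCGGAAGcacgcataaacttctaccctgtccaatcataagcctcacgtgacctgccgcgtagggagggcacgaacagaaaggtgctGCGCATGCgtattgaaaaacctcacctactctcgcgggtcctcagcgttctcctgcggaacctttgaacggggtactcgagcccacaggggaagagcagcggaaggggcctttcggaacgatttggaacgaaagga

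MRPL58, the highest member, had 2 ETS matches and no NRF1 match, MRPS18C had 1 of each, and the other 3 had neither. Among 66 members with a sequence, 22 held the ETS motif (33.3%), compared with 11.8% of 15842 protein-coding promoters of the same length. Members with it had a median difference of 0.093 log2 units and the 44 without it 0.12. The NRF1 motif occurred in 6 members (9.09%) and in 3.70% of all these promoters. Their median difference was 0.14, and that of the 60 without it was 0.10. The motif AAGATGGCG, bound by YY1, was present in 3 members (4.55%, with 0.751% of all), which were large subunit genes. An E-box, CACGTG, was found in 6 (9.09%, with 7.84%), and the sterol regulatory element TCACCCCAC in none (0.360% of all). Matches were sought on both strands, overlaps were allowed, and they describe letters in a window and no binding.

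Of 5 genes listed for the stalk, which recruits translation factors to the large subunit, 4 were higher, with a median of 0.11 log2 units. That is 80%, where 52.2% of all genes above the floor were higher. MRPL11, the base of the stalk, had 6.47 log2 units on the array labelled knockdown and 6.23 on the control array. MRPL12, the stalk protein that is also reported to bind the mitochondrial RNA polymerase, had 6.98 on the array labelled knockdown and 6.75 on the control array. These differences were 0.24 and 0.23. MRPL10, which anchors MRPL12, differed by 0.11 and MRPL53 by 0.10. MRPL54 had 4.34 on the array labelled knockdown and 4.37 on the control array, a difference of -0.026, and had the lowest signal of the large subunit on both.

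Of the 6 genes listed for the exit tunnel, 4 were higher (66.7%, with 52.2% of all genes), 1 was lower and 1 was equal. Their median was 0.014 log2 units. With the median of all genes subtracted 3 were higher and 3 lower. The list leaves out MRPL4, which lines the tunnel and differed by 0.30. MRPL24 and MRPL47 differed by 0.26 and 0.20. MRPL22 differed by 0.022 and MRPL17 by -0.0094, and MRPL23 had 5.11 log2 units on both arrays. MRPL45, which holds the ribosome at the inner membrane, had 7.79 log2 units on the array labelled knockdown and 7.78 on the control array, a step of 0.0058 that turned to -0.0064 with the median of all genes subtracted and to -0.047 with a signal-dependent curve subtracted.

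Genes listed for the central protuberance, where the subunits meet above the tRNA sites, were both higher and lower. Of the 7 genes listed, 5 were higher (71.4%, with 52.2% of all genes) and 2 lower, MRPL18 and MRPL55. Their median was 0.13 log2 units. The list was made by hand and may leave out other proteins there. MRPL27 had 5.64 log2 units on the array labelled knockdown and 5.44 on the control array. MRPL38, MRPL46 and MRPL48 differed by 0.15, 0.14 and 0.13, while MRPL40 differed by 0.0064 and turned to -0.0058 with the median of all genes subtracted and to -0.0035 with the curve subtracted.

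Other large subunit genes with a bacterial relative lay on both sides of 0. MRPL3 had 7.90 log2 units on the array labelled knockdown and 7.66 on the control array, and MRPL2 had 7.10 on the array labelled knockdown and 6.88 on the control array. Both proteins reach toward the catalytic centre in bacterial ribosomes. MRPL32, which is cut by a protease of the inner membrane before it joins the subunit, had 6.18 on the array labelled knockdown and 5.96 on the control array. MRPL15, MRPL1 and MRPL21 differed by 0.19, 0.18 and 0.17, and MRPL35 by 0.13. MRPL28, MRPL14, MRPL16 and MRPL13 lay between 0.047 and 0.067, MRPL34 at 0.025, MRPL20 at -0.0061 and MRPL36 at -0.034.

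Proteins added to the large subunit in mitochondria, which include MRPL58 and MRPL52 given above, had 18 of 21 genes higher and 3 lower, with MRPS30 and MRPS18A counted as large. Large subunit genes with a bacterial relative had 21 of 29 higher and 7 lower. Of all genes above the floor 52.2% were higher. With the median of all genes subtracted, 15 of 21 additions and 21 of 29 genes with a bacterial relative were higher. With the curve subtracted these were 14 of 21 and 21 of 29. The medians were 0.073 over the additions and 0.11 over the genes with a bacterial relative, and the means were 0.090 and 0.10, a difference that was not tested. MRPL37 had 8.01 log2 units on the array labelled knockdown and 7.86 on the control array. MRPL41 and MRPL44, a relative of ribonuclease III, differed by 0.098 and 0.076, MRPL43 by 0.073 and MRPL42 by 0.061. MRPL51 and MRPL57 differed by 0.039 and 0.036, MRPL39 by 0.0097 and MRPL49 by -0.015. MRPL51 turned to -0.019 with the curve subtracted, and MRPL39 was below 0 both with it and with the median of all genes subtracted. Families follow the systematic protein names, which put MRPS18A and MRPS18B among the additions.

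In the small subunit, the 3 genes listed for the head and decoding centre were higher, where 52.2% of all genes were. The list was made by hand and leaves out other proteins of the head, such as MRPS14, which was lower. MRPS7 had 8.05 log2 units on the array labelled knockdown and 7.79 on the control array, and MRPS9, whose tail reaches toward the tRNA site in bacteria, had 6.27 on the array labelled knockdown and 6.09 on the control array. Together with MRPS12 they had a median of 0.26. MRPS10, also of the head, had 8.58 on the array labelled knockdown and 8.40 on the control array. MRPS2 had 7.28 on the array labelled knockdown and 7.03 on the control array. MRPS15 and MRPS5 differed by 0.20 and 0.10, MRPS28 by 0.14 and MRPS21 by 0.11.

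Mitochondrial additions to the small subunit were higher in 10 of 10 genes by structure, with a median of 0.15 log2 units. The 14 with a bacterial relative had a median of 0.19, with 13 higher. Of all genes above the floor 52.2% were higher. MRPS27, a pentatricopeptide repeat protein of the kind that binds RNA, had 7.09 log2 units on the array labelled knockdown and 6.85 on the control array. MRPS25 had 5.84 on the array labelled knockdown and 5.61 on the control array, and MRPS33 differed by 0.21. MRPS22, MRPS23 and MRPS34 differed by 0.084, 0.069 and 0.058. The last was 0.0018 with the curve subtracted. Among the paralogues of bacterial S18, MRPS18C had 3.86 log2 units on the array labelled knockdown and 3.62 on the control array, the lowest signals of all members, with a difference of 0.24. MRPS18A and MRPS18B, given above, differed by about 0.05.

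**Figure D3:**
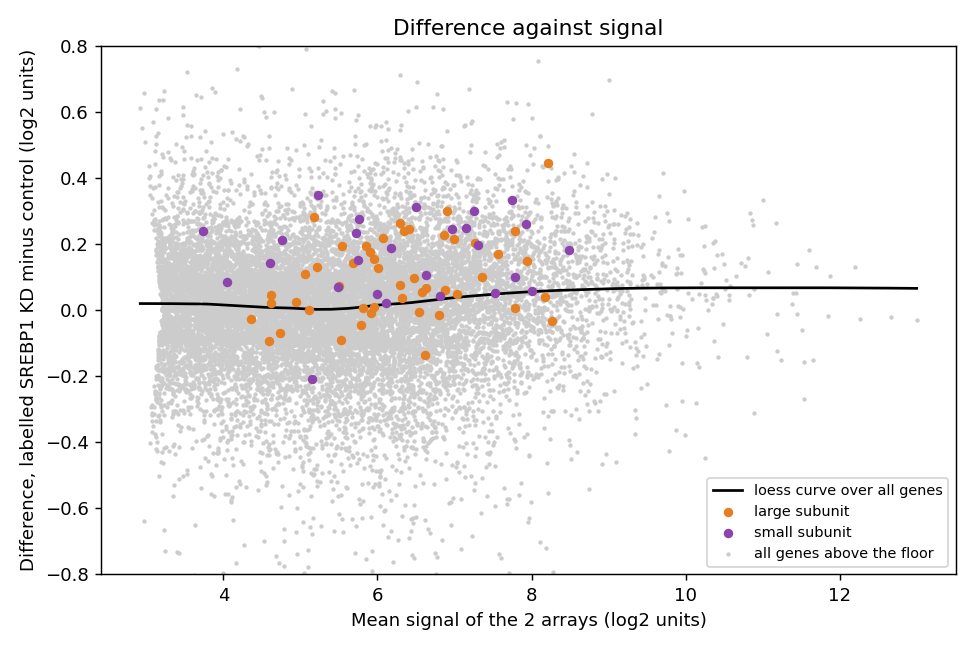
Difference, labelled SREBP1 KD minus control (log2 units), against the mean signal of both arrays (log2 units) for large subunit genes (orange), small subunit genes (purple) and all genes above the floor (grey, 51 outside the axis), with the loess curve over all genes. Members lie between -0.21 and 0.44 at signals where the curve is near or slightly above 0.

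Differences over all genes leaned upward at higher signals, as the plot of difference against signal shows. With this loess curve subtracted, 58 members were above and 16 below 0, where 7584 of all 15677 genes were above and 8093 below. The medians were 0.056 for the large and 0.15 for the small subunit. MRPL58 then had 0.39 and MRPS14 -0.21. Across members, Pearson's r of difference with mean signal was 0.24, over 74 genes that share the arrays. It was 0.31 in the large and 0.13 in the small subunit.

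A list made by hand held 12 members in which inherited variants are known to cause recessive deficiency of oxidative phosphorylation. It may leave out others. Of the 11 measured, 10 were higher (90.9%, with 83.8% of all members and 52.2% of all genes) and 1 lower. Their median was 0.14 log2 units. They ran from MRPS14 at -0.21 and MRPS34 at 0.058 to MRPS2 at 0.25 and MRPS7 at 0.26.

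Probe sets shared with another gene gave values that cannot be assigned. The set named for MRPS6 and SLC5A3, an inositol transporter, had 4.19 log2 units on the array labelled knockdown and 4.55 on the control array, or 1.28-fold lower. The set of MRPS16 and DNAJC9 had 7.21 on the array labelled knockdown and 7.08 on the control array. Of 3 sets named for MRPL30 and C2orf15, the brightest had 6.17 on the array labelled knockdown and 6.16 on the control array.

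Of the subunits of the same ribosome that carry other names, 4 were measured, too few to describe a trend. Their median was 0.085 log2 units, with 3 higher (75%, with 52.2% of all genes) and 1 lower. DAP3, a GTP-binding protein of the small subunit, had 6.76 on the array labelled knockdown and 6.55 on the control array. GADD45GIP1, a large subunit protein, differed by 0.13 and CHCHD1 by 0.043. PTCD3, another pentatricopeptide repeat protein, differed by -0.064.

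Factors that work with the mitochondrial ribosome went both ways. The median of 11 translation factors was 0.070 log2 units, with 7 higher (63.6%, with 52.2% of all genes) and 4 lower. GUF1, a relative of the bacterial elongation factor that moves ribosomes back, had 6.70 log2 units on the array labelled knockdown and 6.09 on the control array, or 1.52-fold higher. MTIF2, which brings the initiator tRNA, differed by 0.21. The other initiation factor, MTIF3, had 4.85 on the array labelled knockdown and 5.17 on the control array, and the release factor MTRF1 had 4.06 on the array labelled knockdown and 4.37 on the control array. The pair of initiation factors thus lay on opposite sides of 0.

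Assembly factors and enzymes that modify the ribosomal RNA had 15 of 25 genes higher (60%, with 52.2% of all genes) and 7 lower. Their median was 0.041 log2 units, and 14 were higher with the median of all genes subtracted. MRM3, a methyltransferase of the large subunit RNA, had 6.52 on the array labelled knockdown and 6.06 on the control array, or 1.37-fold higher. RCC1L differed by 0.28. The helicase DDX28 and METTL15, a methyltransferase of the small subunit RNA, were lowest, at -0.19 and -0.14.

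Mitochondrial aminoacyl-tRNA synthetases, which charge the tRNAs, had a median of 0.096 log2 units. Of 16 genes, 11 were higher (68.8%, with 52.2% of all genes) and 5 lower. MARS2, for methionine, had 6.41 on the array labelled knockdown and 5.86 on the control array, or 1.46-fold higher, and EARS2, for glutamate, differed by 0.31. RARS2 and IARS2, for arginine and isoleucine, were lowest at -0.070 and -0.067.

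Transcription and RNA handling in mitochondria had 10 of 14 genes higher (71.4%, with 52.2% of all genes) and 4 lower. Their median was 0.16 log2 units. ELAC2, which trims tRNA ends, had 7.76 on the array labelled knockdown and 7.38 on the control array. PNPT1, a polynucleotide phosphorylase, had 6.91 on the array labelled knockdown and 6.54 on the control array. The elongation factor TEFM differed by -0.16, and MTERF1 by -0.096, its signal of 3.12 on the array labelled knockdown being below the floor. Nuclear regulators of mitochondrial genes were split, with 6 of 10 higher (60%, with 52.2% of all genes), 3 lower and a median of 0.060. PPRC1, a coactivator of NRF1, had 7.04 on the array labelled knockdown and 6.63 on the control array, and MYC differed by 0.20. GABPA, the DNA-binding part of GABP, had 4.96 on the array labelled knockdown and 5.27 on the control array. PPARGC1A had 2.94 on the array labelled knockdown, which is below the floor, and 3.32 on the control array.

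**Figure D4:**
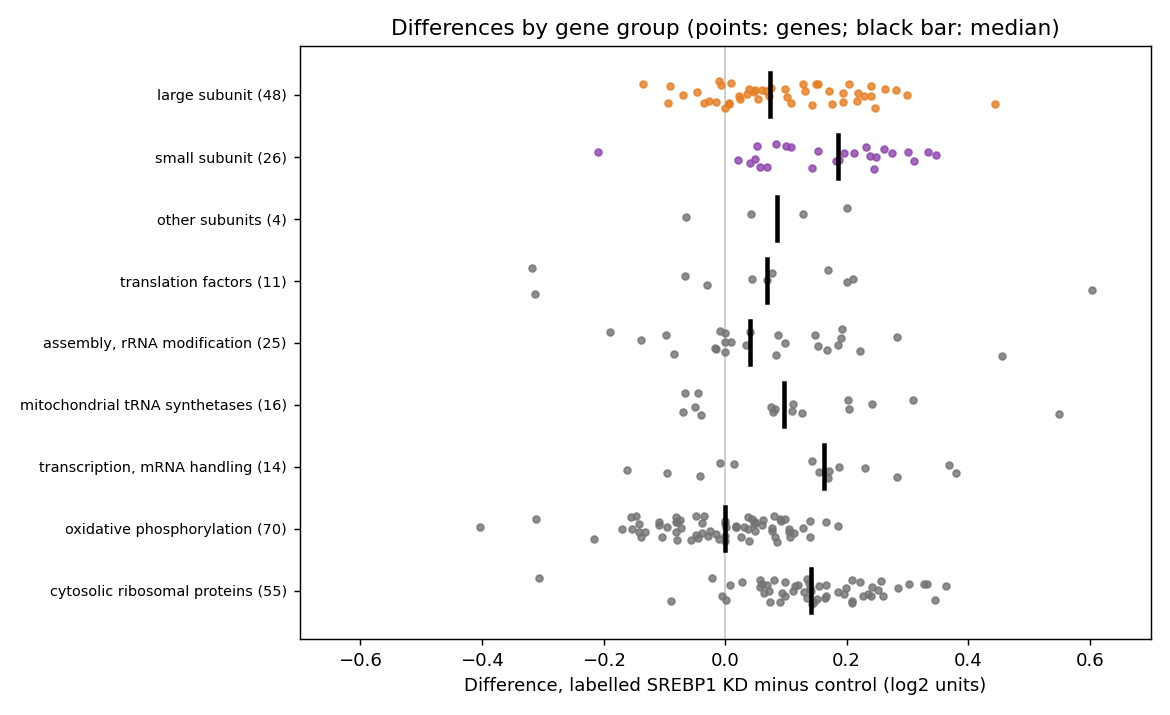
Difference of each gene, labelled SREBP1 KD minus control (log2 units), by group, with 1 point per gene and a black bar at the median. The small subunit's median of 0.19 is the furthest right, and that of oxidative phosphorylation lies at 0, or at -0.016 with the curve subtracted.

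Cytosolic ribosomal protein genes, the counterparts of the members outside mitochondria, had 51 of 55 genes higher, 4 lower and a median of 0.14 log2 units. That is 92.7% higher, with 52.2% of all genes. RPL9 and RPS4X differed by 0.36 and 0.35, and RPL36AL and RPS27L by -0.31 and -0.088. Nuclear subunits of oxidative phosphorylation, which join the proteins made by the mitochondrial ribosome, had 33 of 70 genes higher and 33 lower, with a median of 0.00. That is 47.1% each, where 52.2% of all genes were higher and 41.2% lower. With the median of all genes subtracted 32 were higher and 38 lower, and with the curve subtracted 25 were higher and 45 lower. By 1.2-fold 0 were higher, against 6.59% of all genes, and 2 were lower, against 6.54%. NDUFA6 and ATP5MC2 were highest at 0.19 and 0.17. SDHC, a membrane subunit of succinate dehydrogenase, was lowest, with 7.04 log2 units on the array labelled knockdown and 7.44 on the control array, followed by COX8A at -0.31. Of 7 fatty acid synthesis genes known as SREBP1 targets, 5 were higher and 2 lower (median 0.0061), but 3 were higher and 4 lower with the median of all genes subtracted, and 2 higher and 5 lower with the curve subtracted. These groups share both arrays with the members, and no difference between groups was tested. For the 13 protein-coding genes of the mitochondrial genome, no probe set was found under the symbols searched for, so they are not described.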

How the data were processed

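The authors deposited log2 signals of 70523 probe sets, computed by RMA within Affymetrix Expression Console according to the submitters' processing notes. Software versions and the array's genome build were not given in the sources used here. Biotinylated cDNA was made from total RNA, per the labels' protocols. RMA equalises the arrays, so signals are relative, and fold changes on arrays are commonly compressed. Depth does not apply to arrays, and their number, 1 per group, limits the precision.

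Of the probe sets, 23781 named 1 gene, 1543 several and 45199 were unnamed here. Symbols were updated through a RefSeq gene table (GRCh38.p14). The probe set with the highest mean stood for a gene. Olfactory receptor genes (359) set the floor of 3.21 log2 units, as the 95th percentile of their mean signals. Groups came from the genotype label. Differences were counted at 1.1-fold, 1.2-fold and 1.5-fold, with no test. Protein families came from systematic names among the RefSeq synonyms, with MRPS24 and MRPS28 added by hand. Promoters are RefSeq sequences, matched by symbol for 66 of 74 members. Alternatives changed the centring, a loess curve (fraction 0.3), the floor, probe set handling, symbols, subunit assignment, threshold and summary. The members and gene lists were chosen with earlier results of these data known. Genes were named by rule: the 5 highest and lowest of each subunit, members beyond 1.2-fold, structural landmarks, signal extremes, and the 2 highest and lowest of each list. Other members named were added after their values were seen. The code was tested on simulated data. Software was Python 3.11.15 with statsmodels 0.14.6, pandas 2.3.3, numpy 2.4.6 and matplotlib 3.10.9.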

Additional observations from a re-analysis of the deposited data

How the results depend on the processing

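The direction of the medians and the order of the subunits did not change under any alternative run, but several runs could not change that order. Subtracting the median of all genes leaves the large minus small difference at -0.11, and dropping the floor leaves the same 74 members. The large subunit's median ran from 0.056 to 0.097 log2 units, the small subunit's from 0.15 to 0.19, and the large minus small difference from -0.12 to -0.066. Members higher numbered from 58 of 74 with the curve subtracted to 64 of 77 with probe sets of several genes added. Those higher by 1.2-fold numbered 7 after centring on all genes and 7 after the curve was subtracted, and at 1.1-fold and 1.5-fold the counts were 34 and 0. Those lower numbered 1 at 1.1-fold, and 1 at 1.2-fold with probe sets of several genes added, which is the set of MRPS6 and SLC5A3. Single genes turned sign in 3 cases with the median subtracted and 4 with the curve, all with differences under 0.05. Averaging probe sets gave MRPS14 -0.11 in place of -0.21. The floor did not matter for members, as 72 of 74 passed with it 1 log2 unit higher. No paired analysis was possible because each group had 1 array. Arrays without replicates give no error for any difference, and 48 of 74 members differed by less than the SD of all genes, 0.19. Of the others, 25 were higher by more than it and MRPS14 was lower by more. The share of all genes within this SD was not counted.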

Other observations

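MRPL46 and MRPS11 are the 1 pair of measured members that are next to each other among protein-coding genes in the RefSeq annotation, on chromosome 15. MRPL46 had a difference of 0.14 log2 units and MRPS11 of 0.042, both above 0. Promoters of the 66 members with a sequence had a median GC content of 61%, and all 15842 protein-coding promoters one of 62.4%. In the small subunit 36% of 25 promoters held the ETS motif, and in the large subunit 31.7% of 41.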
